A study of Mus musculus with 58 samples.

Results

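Expression of 10 microglial genes, whose human counterparts lie at loci linked to the risk of Alzheimer's disease, was followed through 34 microglia RNA-seq libraries. The set held Trem2, Tyrobp, Plcg2, Inpp5d, Cd33, Apoe, Sorl1, Bin1, Picalm and Abi3, chosen by name and matched by symbol to the Ensembl gene of each count table. All 10 were found among 47643 genes, and every one was counted in every library, with a lowest count of 28 reads (Cd33).

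Microglia are the resident macrophages of the brain, and several of these genes encode parts of a common receptor pathway. TREM2 binds lipids and lipoproteins at the cell surface and signals through its partner DAP12, the product of Tyrobp. Downstream, the phospholipase PLCγ2 carries the signal on, while the lipid phosphatase SHIP1, the product of Inpp5d, and the sialic acid-binding receptor CD33 restrain it. Apolipoprotein E is a lipid carrier that microglia and astrocytes secrete and that TREM2 can bind. SORL1, BIN1 and PICALM act in endosomal sorting, membrane curvature and clathrin-coated vesicle formation, and ABI3 belongs to the family of WAVE complex adaptors that link Rac to actin.

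The libraries fell into 4 comparisons, in which the study asked how tau and the NF-κB pathway act on microglia. Wild-type primary microglia, shaken off mixed glial cultures of newborn pups, received full-length (0N4R) tau fibrils at 2 µg/ml for 24 hours or vehicle (n = 4 each). Adult microglia were isolated with CD11b beads from 11-month-old males, either PS19 mice bearing a transgene for human P301S tau or their non-transgenic (NTG) counterparts (n = 4 each). IkbkbCA cultures carried Cx3cr1CreERT2/+ and the IkbkbCA F/F allele, a constitutively active IKKβ, and their controls, called IkbkbWT, carried IkbkbCA F/F without Cre (n = 5 each). Ikbkb-/- cultures carried Cx3cr1CreERT2/+ and Ikbkb F/F, and their controls, called Ikbkb+/+, carried Ikbkb F/F without Cre (n = 4 each). The 4 Ikbkb groups were all treated with 4-hydroxytamoxifen. Because CreERT2 sits in the Cx3cr1 gene, presence of Cre and loss of a Cx3cr1 allele cannot be told apart from the Ikbkb change in either genotype comparison. No label ties the libraries of a group to separate cultures, so the p-values measure the spread between these libraries, which may be technical.

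Assigned reads per library ranged from 1672052 to 8349128. Ikbkb, the targeted gene, measured 18.7 to 24.7 CPM (counts scaled to library size) in Ikbkb-/- against 45.6 to 55.2 CPM in Ikbkb+/+ libraries. In IkbkbCA and IkbkbWT it measured 45 to 60.4 against 40.4 to 58.8 CPM, which overlapped. The paper reports raised Ikbkb mRNA by quantitative PCR in IkbkbCA cultures. Whether reads from the 3′ end capture the transgene was not tested. All 18 markers of microglia were counted in each group, and their summed CPM ran from 6054 to 7930 in vehicle cultures up to 52388 to 59369 in NTG microglia. Y-linked Ddx3y measured 155 to 173 CPM in Ikbkb-/- and 35 to 69.4 CPM in Ikbkb+/+, so the sex of the cells and the genotype cannot be told apart in that comparison. In IkbkbWT, Ddx3y measured 143 to 177 CPM in libraries 1 to 3 but 1.15 and 2.04 CPM in libraries 4 and 5, while the IkbkbCA libraries held 49.3 to 85.9 CPM, so sex also differed among the libraries of that comparison. PS19 library 1, labelled male, held 177 CPM of the X-linked Xist, against 1.80 to 31.1 CPM in the other 7 adult libraries. The same library also held 123 CPM of Ddx3y, with 101 to 223 CPM in the other PS19 libraries. The third IkbkbWT and IkbkbCA libraries had the highest oligodendrocyte marker sums, 5884 and 2270 CPM.

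Promoter windows, 250 bases before to 50 bases after a gene's start, were available from RefSeq for 7 of the 10 genes, and 4 are printed because they belong to the receptor, the enzymes and the inhibitory receptor of the TREM2 axis. Capitals mark the letters that matched the PU.1 core GAGGAA, the AP-1 site TGANTCA or the E-box CACGTG bound by MITF and TFE factors, on either strand. Coordinates are of GRCm38.p6, and each run is written 5′ to 3′ on the gene's own strand.
Trem2, chr17:48346151-48346450, plus strand: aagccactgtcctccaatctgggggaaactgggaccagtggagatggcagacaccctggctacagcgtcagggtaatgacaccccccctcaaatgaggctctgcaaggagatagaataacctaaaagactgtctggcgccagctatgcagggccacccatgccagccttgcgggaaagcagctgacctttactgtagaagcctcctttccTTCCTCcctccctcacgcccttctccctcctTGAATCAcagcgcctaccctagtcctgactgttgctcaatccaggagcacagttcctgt
Plcg2, chr8:117498025-117498324, plus strand: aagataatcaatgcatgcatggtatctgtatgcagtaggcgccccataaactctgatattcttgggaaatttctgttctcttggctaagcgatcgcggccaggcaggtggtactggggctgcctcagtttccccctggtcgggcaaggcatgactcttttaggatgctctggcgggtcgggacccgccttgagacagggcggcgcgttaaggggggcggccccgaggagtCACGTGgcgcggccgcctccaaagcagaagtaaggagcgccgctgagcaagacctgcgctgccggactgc
Inpp5d, chr1:87620062-87620361, plus strand: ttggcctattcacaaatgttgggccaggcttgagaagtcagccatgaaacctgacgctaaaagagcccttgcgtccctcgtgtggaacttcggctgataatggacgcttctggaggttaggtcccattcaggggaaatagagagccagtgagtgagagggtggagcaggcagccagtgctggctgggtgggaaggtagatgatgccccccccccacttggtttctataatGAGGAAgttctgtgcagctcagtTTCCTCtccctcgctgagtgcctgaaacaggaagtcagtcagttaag
Cd33, chr7:43533122-43533421, minus strand: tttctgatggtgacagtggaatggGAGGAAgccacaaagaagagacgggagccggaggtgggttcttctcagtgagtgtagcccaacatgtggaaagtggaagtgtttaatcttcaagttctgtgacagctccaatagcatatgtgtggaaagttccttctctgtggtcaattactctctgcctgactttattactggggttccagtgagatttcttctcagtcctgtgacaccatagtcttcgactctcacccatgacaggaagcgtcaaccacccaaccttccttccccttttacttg
The PU.1 core stood in 5 of the 7 windows, those of Apoe, Cd33, Inpp5d, Picalm and Trem2, and in 28.3% of all 32851 windows of the same length. PU.1 is the lineage-determining factor of macrophages and microglia. The E-box stood in the windows of Picalm, Plcg2 and Sorl1 (7.2% of all windows), and the AP-1 site in that of Trem2 (7.8% of all windows). Neither the NF-κB consensus (8.5% of all windows) nor the ISRE-like element of interferon responses (3.4%) had its letters in any of the 7. In Plcg2 the E-box began 20 bases before the start, and in Trem2 the AP-1 letters began 9 bases before it. In the printed windows no different motifs overlapped. The Cd33 window is that of the RefSeq start, which lies 11257 bases inside the longer gene of the annotation used for positions. A match of letters is a description and not a binding site.

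Among the receptor genes, PS19 microglia held the highest group means and the wild-type primary cultures, tau-treated or not, the lowest. Levels are CPM after scaling all 34 libraries together, given as mean ± SD. Trem2 (ENSMUSG00000023992, GRCm38 chromosome 17, 48346401 to 48354147, plus strand) averaged 1406 ± 131 CPM in PS19 microglia and 1399 ± 128 CPM in those of NTG mice (n = 4 each), and 484 ± 52.3 CPM in tau-treated cultures (n = 4), its lowest group. Tyrobp (ENSMUSG00000030579, GRCm38 chromosome 7, 30413760 to 30417585, plus strand) spanned a smaller fold, 2.49 against 2.91 for Trem2, from 796 ± 157 CPM in vehicle to 1980.2 ± 464 CPM in PS19 (n = 4 each). For both genes 6 of the 7 pairs of neighbours in the order of group means overlapped in their libraries. Culture, age, isolation and the run of libraries differ together between the experiments, so levels set across them were not tested and their sources cannot be told apart.

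The signalling genes also had their highest group mean in PS19 microglia, and their lowest in vehicle cultures. Tau-treated cultures came next to lowest for Inpp5d and Cd33. For Plcg2 they averaged 52.3 CPM, above Ikbkb+/+ (47.5 CPM) and IkbkbWT (43.4 CPM). Plcg2 (ENSMUSG00000034330, GRCm38 chromosome 8, 117498291 to 117635142, plus strand) ranged from 28.9 ± 4.26 CPM in vehicle to 99.1 ± 20.3 CPM in PS19 microglia (n = 4 each). Inpp5d (ENSMUSG00000026288, GRCm38 chromosome 1, 87620312 to 87720507, plus strand) ranged from 101 ± 11.9 to 513 ± 194 CPM in the same groups. The widest range belonged to Cd33 (ENSMUSG00000004609, GRCm38 chromosome 7, 43524216 to 43544428, minus strand), whose group means differed 21.9-fold, from 18.1 ± 4 CPM in vehicle to 396 ± 183 CPM in PS19. Cd33 in the 18 libraries of the Ikbkb experiments lay between 108 and 151 CPM, above every wild-type culture and below every adult library.

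Apoe departed from this order and was highest in the cultures of the Ikbkb experiments. Apoe (ENSMUSG00000002985, GRCm38 chromosome 7, 19696109 to 19699188, minus strand) averaged 21518 ± 3757 CPM in IkbkbWT (n = 5) and 2389 ± 881 CPM in NTG (n = 4), a 9.01-fold span. The order of its group means ran from IkbkbWT through Ikbkb-/-, Ikbkb+/+ and IkbkbCA, which overlapped, to tau and vehicle cultures and then to PS19 and NTG. Vehicle and PS19 overlapped, as did PS19 and NTG.

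Of the sorting and cytoskeletal genes, Bin1 (ENSMUSG00000024381) averaged 458 ± 28.5 CPM in NTG and 69.8 ± 4.64 CPM in vehicle (n = 4 each), a 6.56-fold span. Picalm (ENSMUSG00000039361, GRCm38 chromosome 7, 90130213 to 90213465, plus strand) spanned 2.26-fold, from 499 ± 47.2 to 1128 ± 113 CPM. Sorl1 (ENSMUSG00000049313, GRCm38 chromosome 9, 41964720 to 42124297, minus strand) was flattest, with 68.5 ± 10.7 CPM in vehicle and 40.6 ± 1.72 CPM in Ikbkb+/+ (n = 4 each), and each of its 7 neighbouring pairs overlapped. Abi3 (ENSMUSG00000018381, GRCm38 chromosome 11, 95830074 to 95842476, minus strand) spanned 17.9-fold, from 19.3 ± 3.29 CPM in vehicle to 347 ± 55.7 CPM in NTG.

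**Figure D1:**
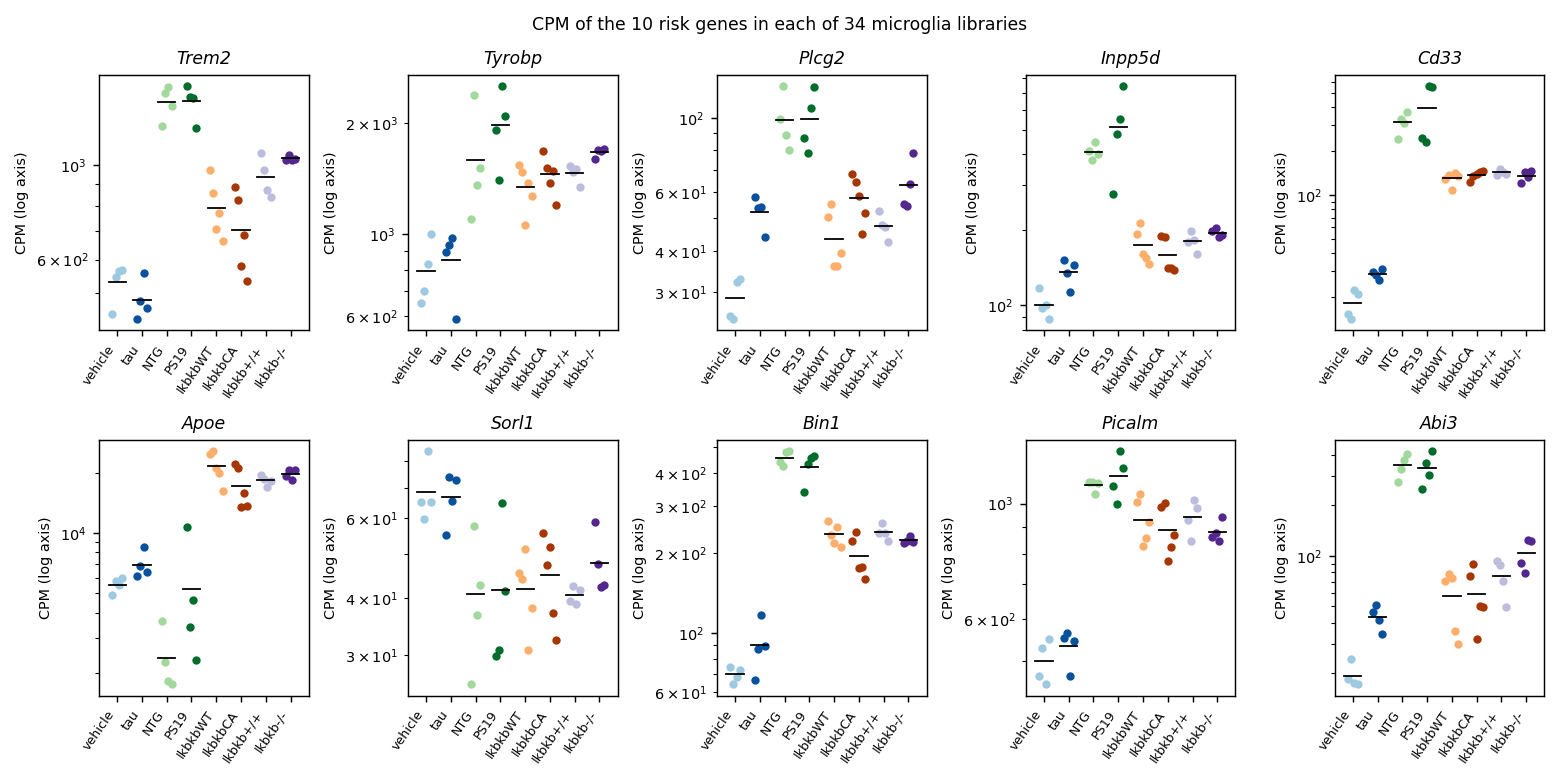
CPM of each of the 10 genes on a log axis, 1 point per library and a line at each group mean, for the 8 groups. The group means of Cd33, Abi3, Bin1 and Inpp5d sit highest in NTG and PS19 and lowest in vehicle and tau. Some tau libraries of Abi3 and Inpp5d overlap those of the IkbkbWT and IkbkbCA groups. Apoe sits highest in the 4 Ikbkb groups.

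Abi3 shares its locus with genes of the other strand. The span of Gngt2, a G protein subunit gene, covers 558 bases of Abi3 exons, that of Zfp652 3272 and that of Phospho1 2067. These spans include introns, and overlap of exons with exons was not computed. Gngt2 measured 11.8 to 199 CPM over the libraries, against 17.3 to 419 CPM of Abi3, and Phospho1 at most 1.04 CPM. Whether the counting used strand is not given in the sources used here, so Abi3 values are uncertain to the extent that reads of Gngt2 or Zfp652 entered them.

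By profile over the 34 libraries, the gene nearest to each member, measured as the root mean square difference of centred log2 CPM among 10060 genes, was Qk for Trem2 (0.21), Rpl23 for Tyrobp (0.16), Tifa for Plcg2 (0.19), Pip4k2a for Inpp5d (0.22) and Cd86 for Cd33 (0.33). For the others it was Fblim1 for Apoe (0.34), Ei24 for Sorl1 (0.26), Khk for Bin1 (0.23), Ncbp3 for Picalm (0.15) and Tmem173 for Abi3 (0.38). These profiles mostly carry the differences between experiments, and no shared control follows from them.

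The first comparison asked what tau fibrils change in wild-type microglia. After 24 hours, 6 of the 10 genes rose and none fell: Abi3, Plcg2, Cd33, Inpp5d, Bin1 and Apoe, by 1.29-fold to 2.26-fold. The receptor Trem2 and its partner Tyrobp did not pass the test, nor did Picalm and Sorl1. Of all 10408 genes tested, 14.5% were called higher and 15.4% lower, at a Benjamini-Hochberg false discovery rate (FDR) below 0.05 in edgeR's quasi-likelihood test. The median log2 fold change was 0.40 over the 10 genes and -0.011 over all genes.

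Plcg2 measured 57.8, 53.6, 54.2 and 43.9 CPM in the 4 tau libraries and 25.5, 25, 32.2 and 33 CPM in the 4 vehicle libraries. Every tau library lay above every vehicle library, and the log2 fold change was 0.91 ± 0.18 (SE), with an FDR of 0.00031. Abi3 measured 46.3, 51.1, 41.3 and 34.2 CPM with tau and 18.5, 24.2, 17.4 and 17.3 CPM with vehicle. Here too the groups did not overlap, with a log2 fold change of 1.18 ± 0.20 and an FDR of 3.67e-05, and the overlapping Gngt2 rose by 1.41 on the same scale (FDR 2.01e-05).

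Cd33 was scarce in these cultures, at 29.4, 28.4, 26 and 31.3 CPM with tau and 15.2, 14.2, 22.2 and 20.8 CPM with vehicle. Its tau libraries were all higher, and the log2 fold change was 0.73 ± 0.22 (FDR 0.0114). Apoe, at 6106, 6838, 8491 and 6406 CPM with tau and 4884, 5794, 5479.6 and 6000.1 CPM with vehicle, had the smallest of the 6 changes, 0.37 ± 0.13 (FDR 0.0379), and its lowest tau library exceeded its highest vehicle library by a narrow margin. In an exact two-sided permutation test of the log2 CPM values, each of these 4 genes gave p = 0.0286, the smallest value that 4 libraries against 4 allow. Groups without overlap always give that value, so it adds nothing to the lack of overlap. Of the called genes whose groups overlapped, Inpp5d gave p = 0.0571 and Bin1 p = 0.114 in the same permutation test. Groups without overlap were seen in 4 of the 10 genes and in 28.2% of all genes tested.

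Inpp5d, the phosphatase that opposes PI3-kinase signalling, lay at 113 to 151 CPM with tau and 88.3 to 117 CPM with vehicle, which overlapped, and its log2 fold change was 0.47 ± 0.14 (FDR 0.0106). Bin1 ranged from 66.5 to 117 CPM with tau and 64.2 to 74.5 CPM with vehicle, and changed by 0.42 ± 0.16 (FDR 0.0413). Tau library 3 gave its highest value, and tau library 1 lay within the vehicle range.

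Trem2 measured 436, 479, 558 and 462 CPM with tau and 448, 548, 565 and 568 CPM with vehicle. The libraries overlapped, and the log2 fold change of -0.097 had a 95% interval from -0.36 to 0.16. For Tyrobp the interval ran from -0.18 to 0.45, for Picalm from -0.12 to 0.39 and for Sorl1 from -0.31 to 0.33. Changes of any size within these intervals could not be told apart at this depth and number of libraries.

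Markers of other cell types moved with the tau treatment. The summed CPM of the 18 microglia markers was 13826 to 16172 with tau and 6054 to 7930 with vehicle, and 11 of 17 tested rose while 1 fell. Astrocyte markers summed to 604 to 694 CPM with tau and 1089 to 1278 CPM with vehicle, with 8 of 11 tested lower, none higher, and Gjb6 at 0 in both groups. Oligodendrocyte markers summed to 362 to 426 against 597 to 706 CPM, with 4 of 9 lower and 1 higher, and neuron markers to 208 to 260 against 402 to 504 CPM, with 7 of 12 lower and none higher. Border-associated macrophage markers summed to 1078 to 1299 CPM with tau and 326 to 402 CPM with vehicle, with 3 of 5 tested higher and none lower, Lyve1 at 0 in every tau library and Cd163 at 0 in every vehicle library. The part of these shifts in the results of the 10 genes was not tested, and in bulk RNA more cells of a type and more RNA per cell cannot be told apart. Set against the microglia marker sum, the change of Abi3 was 0.038 larger and those of the other 9 genes were 0.25 to 1.24 smaller, a comparison chosen after the data were seen.

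**Figure D2:**
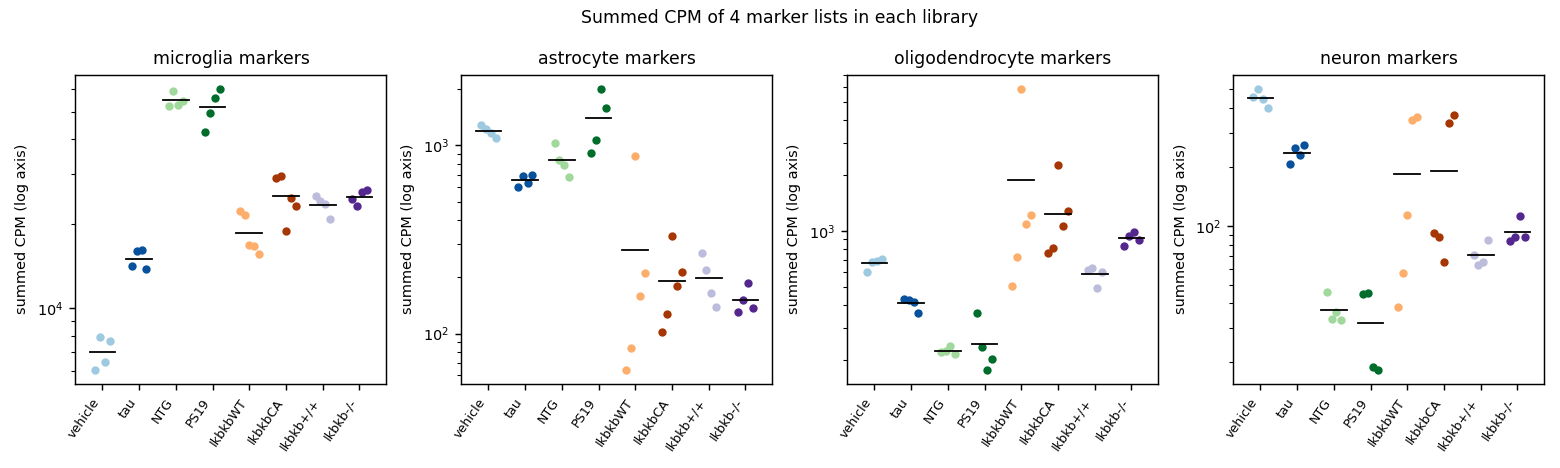
Summed CPM of the microglia, astrocyte, oligodendrocyte and neuron marker lists on log axes, 1 point per library and a line at each group mean. The tau libraries lie above the vehicle libraries for microglia markers and below them for the other 3 lists, without overlap.

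The genes around the members rose more often than they fell with tau. Among the TREM2-DAP12 signalling partners, 14 of 23 tested rose and none fell, led by Pik3ap1, an adaptor for PI3-kinase (2.67 ± 0.26). Of 11 tested inhibitory receptors of the Siglec and related families 7 rose and none fell, and Siglece averaged 27.2 CPM against 0.577 CPM and Pilra 15.8 CPM against 1.13 CPM. In the WAVE and Rac list, 13 of 19 rose and 4 fell, with Rac2, the Rac of blood cells, at 2.43 ± 0.14 and Nckap1 at -1.08 ± 0.16. The median log2 fold changes of these lists were 0.73, 0.83 and 0.70.

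Lipid and sorting genes were more mixed. In the apolipoprotein E and lipid efflux list 5 of 17 tested rose and 2 fell, and the sterol-sensing receptor Nr1h3 (LXRα) changed by 3.08 ± 0.30, the cholesterol carrier Npc2 by 1.17 ± 0.13 and the ApoE receptor Lrp1 by -0.67 ± 0.14. Among clathrin and retromer genes 11 of 29 rose, with Snx2 at 0.98 ± 0.18, and 1 fell, the sorting receptor Sort1 (-0.71 ± 0.17). Of 32 tested genes at other Alzheimer risk loci 14 rose and 6 fell, among them Ms4a6b (3.56 ± 0.17), Ms4a6c (3.36 ± 0.14) and Fermt2 (-1.11 ± 0.16). Nckap1, Fermt2 and Lrp1 are expressed well beyond microglia, and the part of other cells in their changes was not tested.

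Some of these calls rested on few libraries or on the scaling. Apoe was not called without tau library 2 (log2 fold change 0.39), tau library 3 (0.27), vehicle library 1 (0.32) or vehicle library 3 (0.37), nor was Bin1 without tau library 2 (0.45), 3 (0.28) or 4 (0.44) or vehicle library 2 (0.36) or 3 (0.42), nor Cd33 without vehicle library 2 (0.58). With total-count scaling, which moved the median of all genes to -0.16, Plcg2, Abi3 and Cd33 were called, and with a covariate for reads falling outside genes (16.3% to 22.2% with tau, 23.3% to 29.1% with vehicle) Abi3 and Inpp5d were. That share did not overlap between tau and vehicle, so the fit with it cannot divide it from the treatment. In the fit of all 34 libraries Apoe (edgeR FDR 0.338) and Inpp5d (edgeR FDR 0.0687) were not called, nor was Apoe when at least 10 counts were required in every library (edgeR FDR 0.056).

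The second comparison asked what the tau transgene changes in adult microglia at 11 months. None of the 10 genes passed the test in PS19 against NTG with edgeR, DESeq2 or limma-voom, and 1 of the 10, Apoe, had an unadjusted p below 0.05 in edgeR. Such a p was seen in 977 of all 11323 genes. Across 11323 genes 0.0707% were called higher and 0% lower. The median log2 fold change was -0.020 over the 10 genes.

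Apoe measured 10767, 3403, 4625 and 2317 CPM in the PS19 libraries and 3663, 2288, 1837 and 1766 CPM in the NTG libraries. PS19 library 1 was the highest and PS19 library 4 lay within the NTG range. The log2 fold change was 1.07 ± 0.41 with a 95% interval from 0.18 to 1.96, an unadjusted p of 0.0226 and an FDR of 0.487 in edgeR. Without PS19 library 1, the change was 0.46 ± 0.30 (FDR 0.708 in edgeR). Besides its Xist counts, PS19 library 1 had the highest border-associated macrophage marker sum of the adult libraries, 1751 CPM against 666 to 894 CPM in the other 7, and the lowest microglia marker sum, 42480 CPM. Apoe was called when genes of low counts were kept (log2 fold change 1.11, edgeR FDR 0.00993) and in the fit of all 34 libraries (1.09, edgeR FDR 0.0206).

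Other members varied among the PS19 libraries more than between the groups. Cd33 measured 245, 229.5, 558 and 550.4 CPM in PS19 and 243, 333, 311 and 370.4 CPM in NTG. PS19 libraries 3 and 4 lay above all others, and PS19 libraries 1 and 2 below most of NTG. Inpp5d measured 276, 479.5, 551 and 745 CPM in PS19 and 410.3, 377, 448 and 401 CPM in NTG, so that PS19 held both the lowest and the highest library. The 95% interval of the log2 fold change ran from -0.38 to 0.92 for Cd33, from -0.29 to 0.82 for Inpp5d and from -0.43 to 0.31 for Trem2. In none of the 10 genes were the groups free of overlap, against 6.2% of all genes tested.

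Of the partner lists, none of 138 entries tested passed in PS19 with edgeR or limma-voom, 16 had an unadjusted p below 0.05 in edgeR, and DESeq2 called 5. Of all 11323 genes, 977 had such a p in edgeR, and DESeq2 called 95. Granulocyte markers, which other CD11b-positive cells carry, summed to 482 to 2734 CPM in PS19 and 1649 to 2230 CPM in NTG, and none of the 9 tested was called. Astrocyte markers summed to 914 to 2004 CPM in PS19 and 682 to 1031 CPM in NTG, with none of 8 called, and none of 9 border-associated macrophage markers was called. Their part in these results was not tested.

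The third comparison asked what constitutively active IKKβ, the kinase that switches on NF-κB, does to cultured microglia. None of the 10 genes passed the test in IkbkbCA against IkbkbWT with edgeR, DESeq2 or limma-voom, while 7.31% of 11697 genes were called higher and 7.16% lower. Plcg2 and Bin1 had an unadjusted p below 0.05 in edgeR, in opposite directions, as did 3217 of all 11697 genes in either direction.

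Plcg2 measured 67.8, 64.5, 58.4, 44.9 and 51.9 CPM in IkbkbCA and 50.5, 55.1, 35.9, 36.1 and 39.4 CPM in IkbkbWT. The groups overlapped, since IkbkbWT libraries 1 and 2 exceeded the lowest IkbkbCA library, and the log2 fold change was 0.40 ± 0.15 (edgeR FDR 0.0945). Bin1 measured 221, 241, 176, 177 and 159.9 CPM in IkbkbCA and 265, 234, 219, 249.7 and 210.2 CPM in IkbkbWT, with a log2 fold change of -0.28 ± 0.11 (edgeR FDR 0.13). IkbkbCA libraries 3, 4 and 5 lay below every IkbkbWT library. Apoe, at 22185, 21166, 13444, 15794 and 13588 CPM in IkbkbCA and 24733, 25503, 21207, 19869 and 16281 CPM in IkbkbWT, changed by -0.33 ± 0.17 (edgeR FDR 0.243), with overlapping groups.

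Within each group replicates 1 and 2 were alike, as were replicates 4 and 5, and replicate 3 differed from both pairs. Joined across the groups by replicate number, these made 3 sets of libraries. No label ties libraries across the groups, and the joining was not tested. Within these sets, IkbkbCA minus IkbkbWT was 0.32, 0.69 and 0.35 (log2) for Plcg2, -0.11, -0.32 and -0.45 for Bin1, and -0.21, -0.66 and -0.30 for Apoe. With the sets as a covariate, an alternative chosen after the data were seen, these 3 genes were called, with edgeR FDRs of 0.00373 for Plcg2, 0.0194 for Bin1 and 0.0135 for Apoe. Without the third library of both groups, these 3 genes were still called in the fit with the sets, also chosen after the data were seen (edgeR FDRs 0.00557, 0.0285 and 0.0305), and Abi3 was called too, at 0.38 ± 0.11 (edgeR FDR 0.0144), while none was called in the fit without the sets. In IkbkbWT the sets also divided by sex, as given above for Ddx3y, and with Ddx3y as a covariate none of the 10 was called. Abi3 moved apart between the sets, by 0.14, -1.20 and 0.61, so its change of 0.040 ± 0.32 averages unlike values. No gene of the 10 had groups free of overlap, against 12.4% of all genes tested.

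For the receptors, the 95% interval of the log2 fold change ran from -0.51 to 0.14 for Trem2 and from -0.14 to 0.35 for Tyrobp. Cd33 lay at 123 to 147 CPM in IkbkbCA and 108 to 141 CPM in IkbkbWT, with an interval from -0.12 to 0.26.

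Genes around the members did change with active IKKβ. Of 30 tested clathrin and retromer genes 12 fell and none rose, among them the adaptor subunit Ap2a2 (-0.90 ± 0.081) and Sort1 (-0.90 ± 0.10), while the member of this machinery, Picalm, changed by -0.074 ± 0.095 and was not called. Among 26 TREM2-DAP12 partners 7 rose and 3 fell, the latter including the PI3-kinase subunit Pik3cd (-0.73 ± 0.16). Of 13 tested Siglec and related receptors 5 rose, including Siglec1 (1.96 ± 0.28) and Pilra (2.79 ± 0.30), and 2 fell, including Fcgr2b (-0.56 ± 0.12). The lipid list had 3 of 18 higher, with Nr1h3 (2.24 ± 0.30) and Npc2 (0.60 ± 0.10), and 2 lower, with Lrp1 (-0.69 ± 0.086). In the WAVE list 3 of 19 rose, among them Abi1, a relative of Abi3 (0.35 ± 0.075), and 2 fell. At other risk loci 8 of 35 rose, with Ms4a7 (0.97 ± 0.097), and 2 fell, Sort1 and the transcription factor Mef2c (-0.78 ± 0.13).

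Border-associated macrophage markers summed to 1861 to 2500 CPM in IkbkbCA and 3022 to 4408 CPM in IkbkbWT, with 5 of 8 tested lower and 1 higher. Microglia markers summed to 18861 to 29433 CPM in IkbkbCA and 15567 to 22115 CPM in IkbkbWT, with 7 of 18 higher and 2 lower. Their part in the values of the 10 genes was not tested.

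The fourth comparison asked what loss of Ikbkb changes. Plcg2 was the only one of the 10 genes that edgeR called in Ikbkb-/- against Ikbkb+/+, and it rose, by 1.36-fold. Tyrobp and Abi3 were also higher in the means but missed the threshold in edgeR, and each was called by another tool. Of 11242 genes 7.64% were called higher and 6.96% lower, and 18% of them had groups without overlap, as did 2 of the 10, Plcg2 and Tyrobp.

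Plcg2 measured 55.1, 54.6, 63.3 and 78.6 CPM in Ikbkb-/- and 52.6, 47.9, 47 and 42.5 CPM in Ikbkb+/+. All Ikbkb-/- libraries were higher, and the log2 fold change was 0.44 ± 0.12 (edgeR FDR 0.0163). The exact two-sided permutation test gave p = 0.0286, its smallest possible value and the one that groups without overlap always give. Without Ikbkb-/- library 4 the change was 0.30 (edgeR FDR 0.0927) and without Ikbkb+/+ library 4 it was 0.38 (edgeR FDR 0.054). Plcg2 was not called in the fits of 34 libraries (0.43, edgeR FDR 0.23) or 18 libraries (0.43, edgeR FDR 0.116), nor with reads outside genes as a covariate (0.32, edgeR FDR 0.069). With Ddx3y as a covariate, which stands for the sex of the cells, it was 0.15 (edgeR FDR 0.9), and Ddx3y separates the groups without overlap.

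Tyrobp measured 1600.0, 1691, 1677 and 1697 CPM in Ikbkb-/- and 1529, 1474, 1503 and 1342 CPM in Ikbkb+/+. The groups did not overlap, and the log2 fold change was 0.20 ± 0.077 (edgeR FDR 0.0906), and DESeq2 called it (adjusted p = 0.0398). Abi3 measured 91.1, 79.6, 124 and 122 CPM in Ikbkb-/- and 93.5, 88.3, 71.2 and 49.8 CPM in Ikbkb+/+, with overlap, a log2 fold change of 0.51 ± 0.17 and an edgeR FDR of 0.0558. Abi3 was called by limma-voom (adjusted p = 0.047), when genes of low counts were kept (edgeR FDR 4.81e-05), and without Ikbkb+/+ library 1 (0.62), Ikbkb+/+ library 2 (0.60) or Ikbkb-/- library 2 (0.62), and its overlapping neighbour Gngt2 rose by 0.63 (edgeR FDR 0.00172).

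Apoe lay at 18327 to 20627 CPM in Ikbkb-/- and 16991 to 19521 CPM in Ikbkb+/+. The interval of its log2 fold change ran from -0.078 to 0.31, and that of Trem2 from -0.025 to 0.34. Cd33, Bin1 and Picalm had changes of -0.055, -0.086 and -0.082, each with a 95% interval that included 0.

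**Figure D3:**
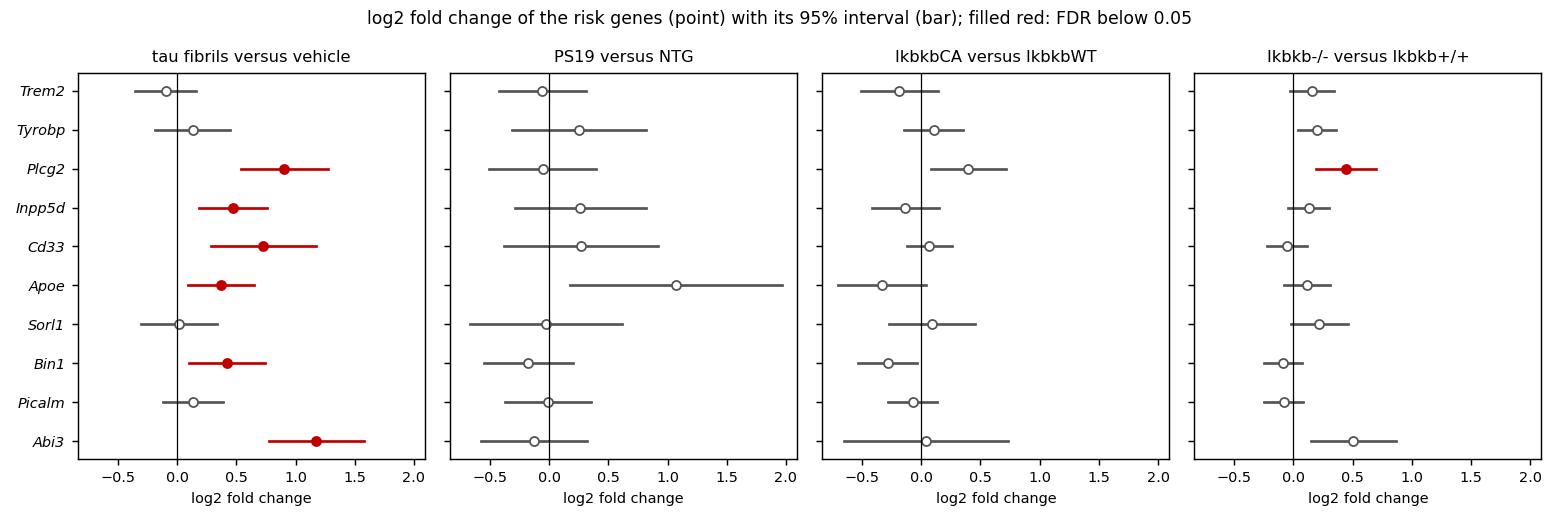
log2 fold change (point) of each of the 10 genes with its 95% interval (bar) in the 4 comparisons, red and filled where the FDR was below 0.05. Red points are the 6 genes called with tau, at 0.37 to 1.18, and Plcg2 in Ikbkb-/- at 0.44.

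In the partner lists, 8 of 30 clathrin and retromer genes fell in Ikbkb-/-, among them Ap2a2 (-0.62 ± 0.098) and Ap2s1 (-0.48 ± 0.11), and 2 rose. Of 25 TREM2-DAP12 partners 1 rose, Pik3ap1 (0.87 ± 0.19), and 3 fell, with Pik3cd at -0.35 ± 0.091. Siglec1 (2.01 ± 0.17) and Siglech (-3.79 ± 0.68), a microglial Siglec, moved apart among 12 tested receptors, of which 3 rose and 1 fell. The lipid list had 5 of 17 higher, with Npc2 (0.59 ± 0.098), and 1 lower, Npc1 (-0.28 ± 0.073). Cyfip2 (0.94 ± 0.12) was the 1 of 19 WAVE genes called, and at other risk loci 9 of 36 rose, with Treml2 (1.12 ± 0.20), and 3 fell.

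Oligodendrocyte markers summed to 828 to 987 CPM in Ikbkb-/- and 491 to 627 CPM in Ikbkb+/+, with 9 of 12 tested higher and none lower. Border-associated macrophage markers summed to 1524 to 2183 against 3545 to 3798 CPM, with 7 of 8 lower and 1 higher. Microglia markers overlapped, at 23025 to 26278 and 20694 to 25114 CPM. The part of these lists in the Plcg2 result was not tested.

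Next, 3 differences between effects were tested directly, each in 1 fit over all libraries it used. IkbkbCA and Ikbkb-/- alter the same kinase in opposite senses. For none of the 10 genes did their effects differ in edgeR, DESeq2 or limma-voom, while 3.12% of 12352 genes did in edgeR. None of the 10 had an unadjusted p below 0.05 in edgeR, against 1889 of all 12352 genes. For Plcg2 the change was 0.40 with active IKKβ and 0.44 without Ikbkb, and the difference was -0.019, with a 95% interval from -0.46 to 0.42. Both of these groups carry Cre and a lost Cx3cr1 allele that their controls lack, and sex also divides Ikbkb-/- from Ikbkb+/+. The part of these in the Plcg2 changes was not tested. The smallest unadjusted p of the 10 belonged to Apoe, whose difference was -0.43, with an interval from -0.87 to 0.011 (edgeR FDR 0.344).

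The tau effect exceeded the IkbkbCA effect for Bin1, by 0.69 ± 0.19 on the log2 scale (edgeR FDR 0.0161), where 7.86% of 13722 genes differed. Bin1 had risen with tau and was lower in the mean with active IKKβ. The difference was not called without tau library 3 (0.55), vehicle library 2 (0.62), IkbkbWT library 4 (0.60) or IkbkbCA library 5 (0.55), nor when only the 4 groups compared were fitted (0.63, edgeR FDR 0.0558) or genes of low counts were kept (0.65, edgeR FDR 0.0806). For Abi3 it was 1.14 ± 0.39 (edgeR FDR 0.0722), and it was called without IkbkbWT library 5 (1.23) or IkbkbCA library 2 (1.33), and when genes of low counts were kept (1.08, edgeR FDR 0.00677). Plcg2 differed by 0.50, with an interval from 0.015 to 0.99 (edgeR FDR 0.224).

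Fibrils in culture and the transgene in the adult brain were set side by side last. The tau effect exceeded the PS19 effect for Plcg2 by 0.94 ± 0.25 (edgeR FDR 0.0104) and for Abi3 by 1.29 ± 0.41 (edgeR FDR 0.0346), and 11.2% of 13722 genes differed. Plcg2 was called without each of the 16 libraries in turn. Abi3 was not called without tau library 1 (1.19) or 2 (1.14), vehicle library 1 (1.26), 3 (1.24) or 4 (1.18), PS19 library 1 (1.16) or 3 (1.24), or NTG library 3 (1.24) or 4 (1.21). Bin1 differed by 0.57 ± 0.20 (edgeR FDR 0.0523), and was called without tau library 1 (0.63), NTG library 2 (0.61) or PS19 library 2 (0.60), 3 (0.61) or 4 (0.64). Apoe went the other way, at -0.70 ± 0.38 (edgeR FDR 0.252). Both of these tests use the tau and vehicle libraries, so their results are not independent.

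**Figure D4:**
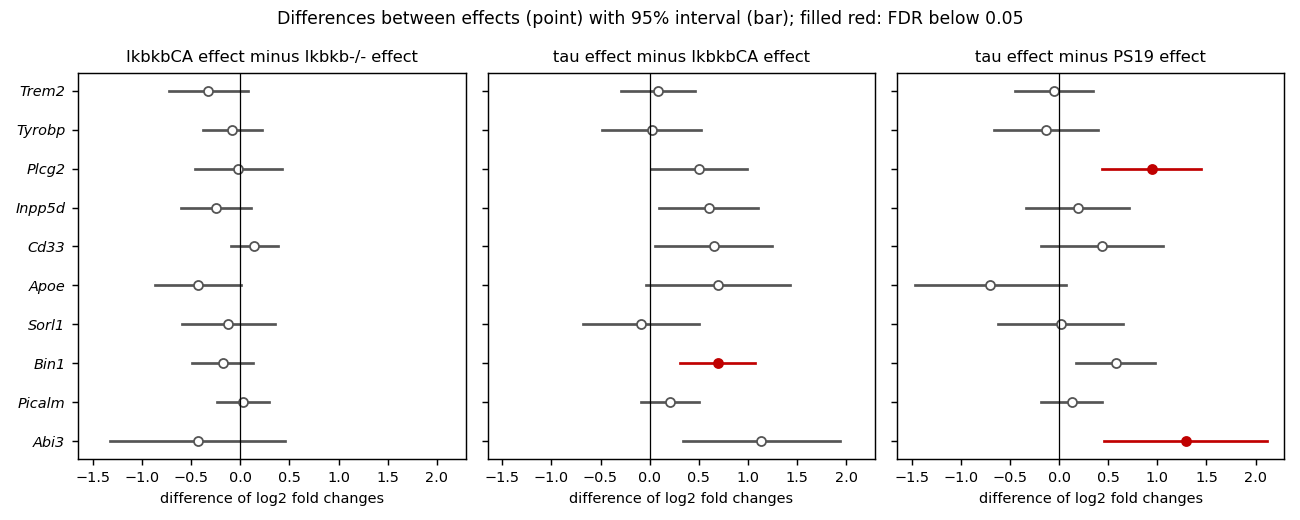
Difference between 2 effects (point) for each of the 10 genes with its 95% interval (bar) on the log2 scale, red and filled where the FDR was below 0.05. Bin1 is red in tau minus IkbkbCA, Plcg2 and Abi3 are red in tau minus PS19, and none is red in IkbkbCA minus Ikbkb-/-.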

How the data were processed

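RNA of microglia was sequenced from the 3′ end (QuantSeq FWD). The authors deposited raw counts of reads per gene, made with the Lexogen pipeline against GENCODE GRCm38, and their processing notes name STAR, RSEM, edgeR and limma, with versions not given in the sources used here. Read counts carry no molecular identifiers. The 5 closing lines that name no gene were left out of the library sizes, and 24 cortex samples of the series were not analysed here.

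Symbols matched 47224 of 47643 genes. Each comparison was fitted on its own libraries with edgeR 4.0.16 in R 4.3.3 (TMM scaling, filterByExpr with a minimum count of 10 and a minimum total of 15, quasi-likelihood test, Benjamini-Hochberg adjustment over all genes tested, threshold 0.05). SE is the fold change divided by the root of F. Differences with tau used all 34 libraries, and that of IkbkbCA and Ikbkb-/- used 18. CPM came from TMM over all 34 libraries, so fold changes need not equal ratios of CPM. Alternatives were RLE and total-count scaling, DESeq2 1.42.0, limma-voom (limma 3.58.1), other filters, covariates, common fits and leaving out each library. The script was tested on simulated data. Among 56 pairs of libraries within groups none were identical, and chi-square per degree of freedom was 1.93 to 80.5.

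The members and lists were chosen with earlier results of these data known. Named genes are the 10 members, Ikbkb and marker genes, the 2 highest and 2 lowest called genes of each list, of which some are given and others are not reported here, the nearest gene by profile, and Gngt2, Zfp652 and Phospho1, chosen after their values were seen.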

Additional observations from a re-analysis of the deposited data

Results flagged for a closer look

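Trem2 in vehicle library 1 measured 448 CPM, apart from the other 3 vehicle libraries at 548 to 568 CPM. Picalm in NTG library 3 measured 1042 CPM, with the other 3 NTG libraries at 1096 to 1102 CPM. These were the only libraries to stand apart by Dixon's ratio among 80 sets, 10 genes in 8 groups, of which chance would mark about 1 in 20.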

How the results depend on the processing

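No paired analysis was possible because the labels give no replicate numbers that tie libraries across groups. The 3 library sets used as a covariate in IkbkbCA came from likeness within groups and were joined across them by replicate number, untested. Beside the counts of members called in the report (6 with tau, 0 in PS19, 0 in IkbkbCA, 1 in Ikbkb-/-), other settings gave these counts. With tau, 3 were called under total-count scaling, 2 under the covariate of reads outside genes, 4 under a common fit of 34 libraries and 5 with at least 10 counts in every library. In PS19, 1 was called under no filter on low counts and a common fit of 34 libraries. In IkbkbCA, 1 was called under total-count scaling and a common fit of 18 libraries, 3 were called under 3 library sets as a covariate, and 4 under the sets without the third library of both groups. In Ikbkb-/-, 2 were called under DESeq2, limma-voom and no filter on low counts, and 0 were called under a common fit of 34 libraries, the covariate of reads outside genes, Ddx3y as a covariate and a common fit of 18 libraries. For tau minus IkbkbCA (1 in the report), 0 were called when only the 4 groups compared were fitted, and with no filter on low counts the 1 called was Abi3 in place of Bin1. For tau minus PS19 (2 in the report), 1 was called under total-count scaling and limma-voom. Leaving out each library gave 4 to 6 called with tau, 0 to 2 in Ikbkb-/-, 0 to 2 for tau minus IkbkbCA, 1 to 3 for tau minus PS19, and 0 in PS19, in IkbkbCA and for IkbkbCA minus Ikbkb-/-.

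In the 4 comparisons the log2 change turned its sign as follows, and no turned value was called. Under total-count scaling the values were Tyrobp -0.024, Picalm -0.019, Sorl1 -0.14 with tau, and Picalm 0.025, Sorl1 0.0064 in PS19, and Abi3 -0.024 in IkbkbCA. With at least 10 counts in every library the value was Sorl1 -0.0059 with tau. Under the covariate of reads outside genes the values were Tyrobp -0.14, Bin1 -0.0019 with tau, and Cd33 -0.027 in PS19, and Trem2 0.16, Inpp5d 0.0078, Abi3 -0.27, Picalm 0.17 in IkbkbCA. Under no filter on low counts the values were Picalm 0.035, Sorl1 0.020 in PS19. Under a common fit of 34 libraries the values were Picalm 0.023, Sorl1 0.012 in PS19. Under age as a covariate the values were Plcg2 0.17, Picalm 0.021, Sorl1 0.025 in PS19. Under Ddx3y as a covariate the values were Abi3 -0.070 in IkbkbCA, and Trem2 -0.44, Tyrobp -0.047, Apoe -0.17, Inpp5d -0.24, Abi3 -0.66, Picalm 0.17 in Ikbkb-/-. Leaving out each library turned the sign of 15 of 70 values, within the ranges -0.087 to 0.12 (Plcg2), -0.019 to 0.085 (Picalm) and -0.22 to 0.0017 (Sorl1) for IkbkbCA minus Ikbkb-/-, -0.076 to 0.18 (Trem2), -0.12 to 0.16 (Tyrobp) and -0.26 to 0.032 (Sorl1) for tau minus IkbkbCA, -0.40 to 0.00025 (Tyrobp) and -0.19 to 0.31 (Sorl1) for tau minus PS19, -0.15 to 0.21 (Abi3 in IkbkbCA), -0.065 to 0.062 (Picalm in PS19), -0.18 to 0.11 (Plcg2 in PS19), -0.32 to 0.21 (Sorl1 in PS19), -0.096 to 0.00011 (Trem2 in PS19), -0.030 to 0.44 (Inpp5d for tau minus PS19), -0.073 to 0.14 (Sorl1 with tau). Total-count scaling moved the share of higher calls with tau to 1057 of 3311 genes from 1506 of 3108. Genes called in PS19 numbered 8 in the report, 95 with DESeq2 and 375 in the common fit of 34 libraries. With the covariate of reads outside genes 22 genes were called in IkbkbCA, all of them among the 1692 of the report, and 948 with tau, of which 925 were among the 3108, and with Ddx3y 291 were called in Ikbkb-/-, of which 203 were among the 1641. The 8 members highest in adult microglia stayed 8 under RLE and total-count scaling. The causes were not tested. With 4 or 5 libraries per group, changes of any size inside a printed interval could not be told apart.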

Other observations

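Ikbkb itself, the kinase gene altered in the cultures, measured 60.0 to 71.3 CPM in tau-treated microglia and 39.6 to 54.3 CPM in vehicle, without overlap, and 65.2 to 99.0 CPM in PS19 against 55.9 to 69.6 CPM in NTG, with overlap. Cx3cr1, the microglial fractalkine receptor gene that holds the Cre, measured 2730 to 3400 CPM with tau and 1283 to 1906 CPM in vehicle. It measured 957 to 1161 CPM in Ikbkb-/- against 1825 to 2857 CPM in Ikbkb+/+. In IkbkbCA it measured 1126 to 1316 CPM against 1500 to 2014 CPM in IkbkbWT. Of all genes tested, groups without overlap were seen in 28.2% with tau, 18% in Ikbkb-/- and 12.4% in IkbkbCA.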
